A study of Mus musculus with 93 samples.

Results

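The homeobox genes outside the Hox clusters were examined in the RNA-seq libraries of mouse embryonic stem (ES) cells. The 98 genes were taken by name from the 33924 gene names of the count tables, and the naming rule used no measured value. They comprise the Pax, Lhx, Isl, Lmx1, Nkx, Dlx, Msx, Emx, En, Vax, Barhl, Barx, Tlx, Lbx, Cdx, Evx, Gbx, Mnx1, Irx, Meis, sine oculis type (such as Six4), Otx, Pitx, Alx, Gsc, Otp, Pou3f and Pou4f genes, with Nkx6-3 left out. Of the 93 samples of the series, the 12 RNA-seq libraries were used, and the chromatin assays were not analysed here. All 12 came from cells labelled R1, a mouse ES cell line, kept in a serum-containing medium to which leukaemia inhibitory factor was added. Set 1 held 3 libraries of wild type cells and 3 of cells with the Ring1b I53A genotype, a point mutant of the catalytic subunit of Polycomb repressive complex 1. Set 2 held 3 libraries of wild type cells and 3 labelled H1b/c/d/e-QKO, a quadruple knockout of linker histone genes, written QKO from here on. The sources used here do not say whether each mutant line was 1 clone. No label states that replicates were grown apart, and the p-values therefore reflect the spread among these libraries alone, part or all of which may be technical.

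Homeobox genes encode transcription factors with a DNA-binding homeodomain, and the genes studied here are known for setting up body axes, organ fields and neuron types in the embryo. In ES cells many of them are held at low RNA levels and carry Polycomb complexes at CpG-rich promoters, where Ring1b places ubiquitin on histone H2A and its companion complex, PRC2, methylates histone H3. Linker histones bind the DNA between nucleosomes and compact chromatin.

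RefSeq promoter windows, each from 250 bases before to 50 bases after a transcription start (build GRCm38.p6), were matched by symbol to 69 of the 98 genes, which gave 81 windows. Over these windows the median ratio of observed to expected CG dinucleotides was 0.745, against 0.384 over all 32851 windows of 27025 genes. A ratio of at least 0.6 together with at least 50% G and C was found in 65.4% of the homeobox windows and in 33.5% of all windows. The letters TAATTA, a sequence that many homeodomains bind and that reads the same on both strands, occurred in 6.17% of the homeobox windows and in 5.29% of all windows. For genes that rose in I53A cells, 70.0% of the 20 windows met the CG criterion, against 70.7% of the 41 windows of genes with too few counts to test in set 1. The share was 50.0% both for the 12 windows of genes tested without a call and for the 8 windows of genes that fell. Those 8 windows belong to only 3 genes and some of them overlap, so they are not independent. The genes that passed the test in both mutants (11, described below by family) included 5 with a RefSeq window, and for each of these the window with the most CG dinucleotides is shown, so that genes that rose and genes that fell can be read side by side. Letters run 5′ to 3′ on the strand of the gene, with every CG in capitals. The first gene rose in both mutants, as did the second; the third and the fourth fell in both, and the fifth fell in I53A and rose in QKO.
Lmx1a, chr1:167689308-167689607, plus strand: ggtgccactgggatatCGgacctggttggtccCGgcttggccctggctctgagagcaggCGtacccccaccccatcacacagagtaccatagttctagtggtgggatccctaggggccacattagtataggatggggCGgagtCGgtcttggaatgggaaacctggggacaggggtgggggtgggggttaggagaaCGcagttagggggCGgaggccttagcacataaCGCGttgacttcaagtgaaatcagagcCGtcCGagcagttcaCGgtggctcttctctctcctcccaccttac
Msx2, chr13:53472731-53473030, minus strand: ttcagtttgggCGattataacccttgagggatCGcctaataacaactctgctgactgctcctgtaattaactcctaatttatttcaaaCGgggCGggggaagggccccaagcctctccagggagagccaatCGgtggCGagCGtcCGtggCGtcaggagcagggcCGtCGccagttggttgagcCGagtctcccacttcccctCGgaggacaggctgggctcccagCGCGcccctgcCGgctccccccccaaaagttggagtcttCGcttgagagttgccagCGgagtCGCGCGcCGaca
Six4, chr12:73113196-73113495, minus strand: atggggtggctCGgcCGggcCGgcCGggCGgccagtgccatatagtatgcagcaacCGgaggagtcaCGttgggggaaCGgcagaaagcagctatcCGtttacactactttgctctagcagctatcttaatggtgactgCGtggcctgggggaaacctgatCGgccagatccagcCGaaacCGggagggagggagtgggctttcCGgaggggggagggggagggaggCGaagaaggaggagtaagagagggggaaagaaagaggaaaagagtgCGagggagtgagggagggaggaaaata
Pax6, chr2:105668646-105668945, plus strand: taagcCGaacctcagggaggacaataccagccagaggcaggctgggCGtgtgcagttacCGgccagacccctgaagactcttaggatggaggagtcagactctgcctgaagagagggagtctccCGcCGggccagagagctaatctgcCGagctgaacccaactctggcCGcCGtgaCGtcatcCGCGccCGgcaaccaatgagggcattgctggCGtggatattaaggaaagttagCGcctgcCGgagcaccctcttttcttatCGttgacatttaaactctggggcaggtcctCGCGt
Otx2, chr14:48665060-48665359, minus strand: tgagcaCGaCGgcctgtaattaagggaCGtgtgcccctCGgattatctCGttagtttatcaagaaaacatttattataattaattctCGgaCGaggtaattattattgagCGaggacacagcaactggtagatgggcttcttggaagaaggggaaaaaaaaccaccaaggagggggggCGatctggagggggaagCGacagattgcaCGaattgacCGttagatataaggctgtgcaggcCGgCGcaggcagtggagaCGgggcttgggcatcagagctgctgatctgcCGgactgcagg
These windows held 12 CG dinucleotides for Lmx1a, 22 for Msx2, 16 for Six4, 18 for Pax6 and 16 for Otx2, so genes that rose and genes that fell were not set apart by their number. TAATTA was present in the windows shown of Msx2 and Otx2.

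Depth ranged from 12585621 to 23378930 counts per library, and in set 1 replicate 3 had the fewest counts in wild type and in I53A and came from tables named in another style. Rnf2, the gene of Ring1b, had 3427, 3380 and 2324 counts in wild type and 1771, 1702 and 1086 in I53A, a log2 fold change of -1.0 ± 0.08 (SE), although a point mutation need not change the RNA. Of the targeted linker histone genes in set 2, Hist1h1b had 4, 9 and 2 counts in the wild type libraries, while those labelled QKO held 62, 53 and 72, and none of the 3 with enough counts to test was called lower. Hist1h1c, the target with the most counts in wild type, had 143, 173 and 205 counts there and 174, 129 and 202 in QKO. Hist1h1e, which had too few, had 6, 0 and 2 counts in wild type and 12, 3 and 7 in QKO. The RNA values thus do not bear out that label, but a knockout need not lower the RNA, so they cannot settle it. ES cell markers (13 measured) were present in every library, with summed levels of 6710 to 7330 CPM (counts relative to a library of 1000000) in wild type and 5460 to 5970 in I53A, and of 5510 to 5750 and 6810 to 7020 CPM in set 2. In bulk RNA, fewer cells of a type and less RNA per cell cannot be told apart.

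Most of the homeobox genes were close to the limit of detection in wild type cells. Per gene length and library size (RPKM, scaled over the 12 libraries), the median over the 98 genes was 0.0961 for wild type and 0.263 for I53A in set 1. In set 2 it was 0.0592 for wild type and 0.0684 for the libraries labelled QKO. A mean above 1 RPKM was reached by 10 genes in wild type and 21 in I53A of set 1, and by 14 and 12 in wild type and QKO of set 2. No gene was at 0 in all 12 libraries, and 28 stayed under 10 counts in each. The highest levels in wild type of set 1 belonged to Otx2, a regulator of the anterior brain and of early pluripotent cells, at 13.1 ± 0.451 RPKM (SD, n = 3) and Six4, a factor of muscle, kidney and placodes, at 11.9 ± 1.83 RPKM. These neighbours in the order lie within their spread. Gbx2, a hindbrain regulator also expressed in ES cells, followed at 5.01 ± 1.15 RPKM and Nkx6-2 at 4.33 ± 0.629 RPKM, again without a gap larger than their SD. Pou4f2 stood at 3.10 ± 0.674 RPKM, Vax2 at 2.27 ± 0.553 RPKM and Pou4f1 at 1.81 ± 0.45 RPKM.

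I53A cells had more RNA from most of these genes. Among the 46 that passed the filter on low counts, 27 rose (58.7%), against 18.1% of all 15536 genes tested, and 4 fell (8.7%), against 17.4% of all genes (edgeR's quasi-likelihood test, adjusted p under 0.05). The median log2 fold change of the 46 was 1.26, with a range from -1.83 for Pax6 to 4.03 for Pax3, while the median of all genes tested was 0. Among the genes that fell were Pax6, Six4 and Otx2. The replicate 3 libraries of set 1 deviated together from replicates 1 and 2. With the replicate number as a block, 30 rose and 4 fell, against 28.1% and 28.5% of all genes. The added calls were Nkx2-9, Pax8 and Pou4f1, with block-adjusted p of 0.0357, 0.00514 and 0.00825. Calls said below to end without a library come from fits without this block. Libraries were not left out with the block in place.

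The filter by itself favours genes that are high in one group, since a gene near 0 in wild type can pass only through its mutant libraries. Of the 46 genes, 26 would pass by their wild type libraries alone. Of these, 10 rose (38.5%) and 4 fell (15.4%), against 15.9% and 19% of the 14199 genes that pass in the same way. Without any filter, 35 of 96 genes rose (36.5%) and 4 fell (4.17%), against 11.1% and 11% of 24663 genes with a count. Over all 98 genes, the summed level was higher in I53A for 79, lower for 17 and equal for 2. Among all genes with a count it was higher for 54.6%. Each I53A library had a count for 87 to 90 of the 98 genes and at least 10 counts for 52 to 55, against 71 to 78 and 30 to 33 in wild type, with no overlap. Over all genes the libraries also did not overlap, with a count for 20450 to 21195 genes in I53A and for 19719 to 20205 in wild type. In replicates 1 and 2 alone, 28 genes rose and 4 fell. All 32 had the same sign in the replicate 3 libraries, as had 93.8% of all genes that rose in replicates 1 and 2 and 94.9% of those that fell.

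**Figure D1:**
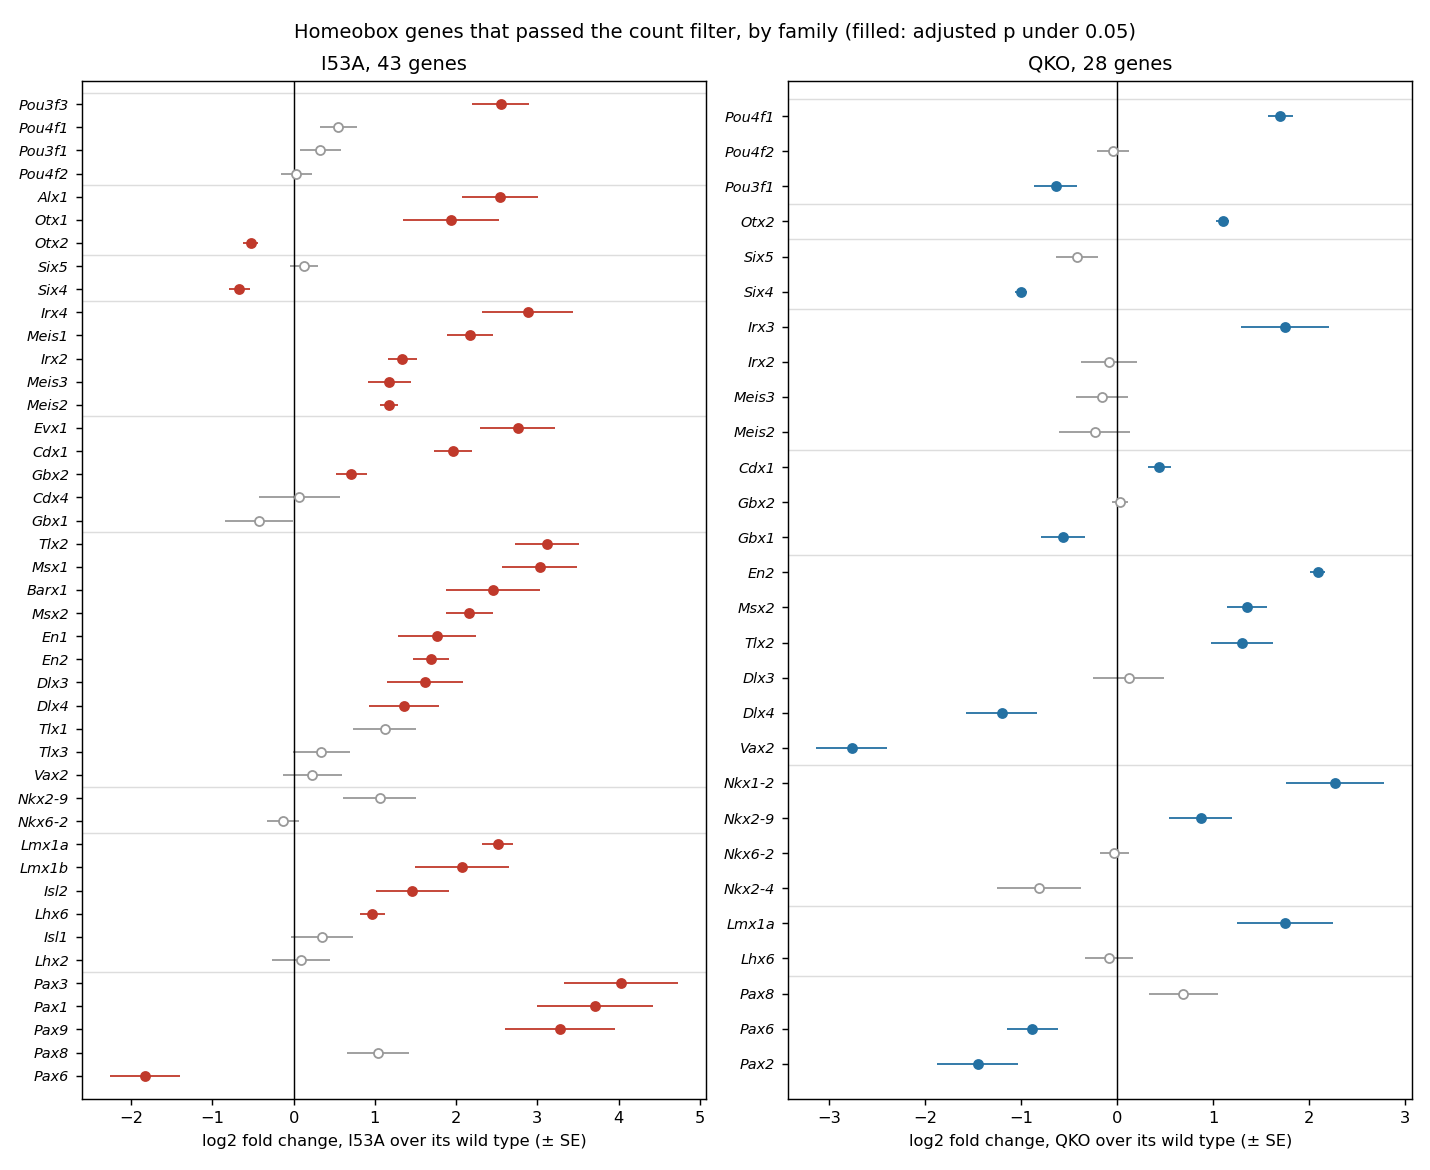
Log2 fold change (horizontal axis, ± SE) of homeobox genes that passed the count filter, in I53A over wild type of set 1 (left, 43 genes) and in the libraries labelled QKO over wild type of set 2 (right, 28 genes), grouped by family between grey lines. Filled points passed an edgeR adjusted p of 0.05. On the left 26 filled points lie above 0 and 3 below, on the right 10 lie above and 7 below.

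In the libraries labelled QKO the genes moved in both directions in about equal number. Of 31 tested, 11 rose (35.5%), against 28.7% of all 15439 genes tested, and 9 fell (29%), against 29% of all genes. These shares are near the background, and the median log2 fold change of the 31 was -0.04, against 0 for all genes. Over all 98 genes the summed level was higher in QKO for 49, lower for 41 and equal for 8, and of the 90 with a count 54.4% were higher, against 56.1% of all genes with a count. Large changes among genes above 1 CPM included increases of En2 and Pou4f1 and a decrease of Vax2, given by family below.

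**Figure D2:**
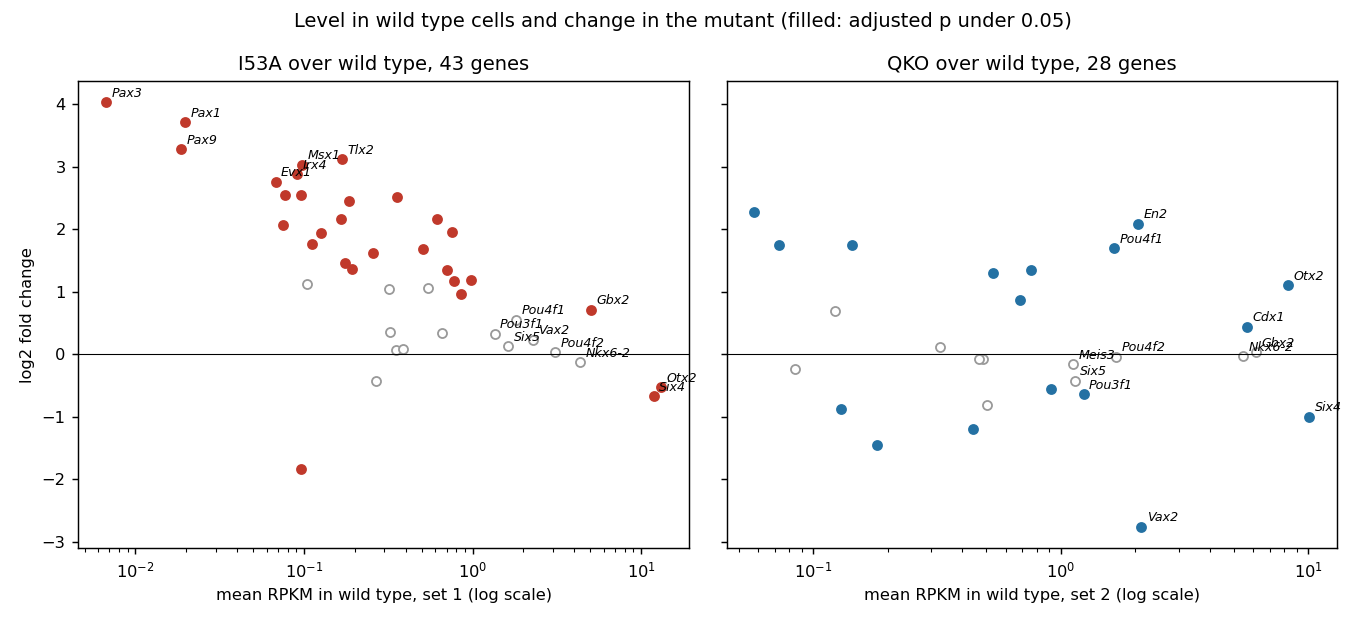
Log2 fold change (vertical axis) against the mean wild type level in RPKM (horizontal axis, log scale) for genes tested in I53A (left, 43) and in QKO (right, 28), with filled points for an edgeR adjusted p under 0.05. On the left the genes of lowest wild type level, such as Pax3, Pax1 and Pax9, lie highest, but a gene at such a level passes the filter only where its mutant libraries are higher. On the right, genes above 1 RPKM lie on both sides of 0.

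The Pax genes encode paired box factors of brain, eye, kidney, skeleton and muscle. In I53A, 3 of the 5 tested rose and 1 fell, against 18.1% and 17.4% of all genes. None of the 3 that rose would pass the filter by its wild type libraries alone. Pax1 and Pax9, regulators of the vertebral column and the pharyngeal pouches, had 1, 0 and 3 counts and 4, 0 and 1 counts in wild type, and 20, 16 and 20 counts and 16, 20 and 15 counts in I53A. The groups of both genes were apart, with log2 fold changes of 3.71 ± 0.72 (edgeR adjusted p = 0.00515) for Pax1 and 3.28 ± 0.68 (edgeR adjusted p = 0.00687) for Pax9. Pax3, a neural crest and muscle regulator, had 2 counts over the 3 wild type libraries and 38 in I53A, a ratio of 19.1 with an exact 95% counting interval from 4.94 to 164. Pax3 had no count in any library of set 2. Pax6, the eye and forebrain regulator, was at 1.74, 1.56 and 2.75 CPM in wild type, against 0.333, 0.844 and 0.474 CPM in I53A. It fell by 1.83 ± 0.43 on the log2 scale (edgeR adjusted p = 0.0117), a call that ended without I53A replicate 1 (adjusted p = 0.0518).

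In set 2, Pax6 was at 1.80, 3.09 and 2.41 CPM in wild type, against 1.28, 1.43 and 1.26 CPM in QKO, again without overlap, and fell by 0.88 ± 0.27 on the log2 scale (edgeR adjusted p = 0.00388). The difference between the effects on Pax6, -0.93 ± 0.50 on the log2 scale, did not pass the test (edgeR adjusted p = 0.164). Exons of Elp4 overlap 27.9% of the counted length of Pax6, and reads of both genes cannot be told apart there without strand. Pax2, the regulator of kidney and midbrain, was at 0.812, 1.16 and 1.02 CPM in wild type and 0.342, 0.435 and 0.328 CPM in QKO. It fell by 1.45 ± 0.42 on the log2 scale (edgeR adjusted p = 0.00287).

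The LIM homeodomain genes specify neurons, limb and pituitary, and 4 of 6 tested rose in I53A, against 18.1% of all genes. Of the 4, Lmx1b and Isl2 would not pass the filter by their wild type libraries alone. Lmx1a, a regulator of midbrain dopamine neurons and the roof plate (chr1:169619370-169778872, plus strand, mm9, the build of all gene positions here), rose most clearly. It stood at 1.24, 1.23 and 1.38 CPM in wild type libraries and 7.32, 7.88 and 6.63 CPM in I53A, without overlap, a log2 fold change of 2.51 ± 0.19 (edgeR adjusted p = 5.3e-05). In set 2 it was lower in both groups, at 0.290, 0.276 and 0.139 CPM in wild type and 0.641, 0.622 and 1.08 CPM in QKO, and rose by 1.75 ± 0.50 on the log2 scale (edgeR adjusted p = 0.00239). Lhx6, known from cortical interneurons, moved from 4.44, 4.24 and 4.20 CPM to 8.09, 7.82 and 9.40 CPM in I53A, a log2 fold change of 0.97 ± 0.15 (edgeR adjusted p = 0.00193). In QKO its log2 fold change was -0.08 ± 0.25, and the effects differed between the mutants by 1.06 ± 0.28 (edgeR adjusted p = 0.00836).

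Lmx1b and Isl2, regulators of limb pattern and motor neurons, rose from under 1 CPM with log2 fold changes of 2.07 ± 0.58 and 1.46 ± 0.45 (edgeR adjusted p = 0.0244 and 0.0357). Neither call was firm in the fit without the replicate block. That of Lmx1b ended when any library but wild type replicate 3 was left out, and that of Isl2 when any 1 of the 6 libraries was. With the block and all 6 libraries both passed (edgeR adjusted p = 0.00135 and 0.0188). Isl1, the partner of Isl2 in motor neurons, was not called in I53A (log2 fold change 0.35 ± 0.38). In set 2 Isl1 had 4, 3 and 11 counts in wild type and 2, 0 and 0 in QKO, a ratio of summed counts of 9.62 with an exact 95% interval from 2.30 to 85.5, higher in wild type.

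None of the 3 Nkx genes tested in I53A passed the test, against 35.5% of all genes in either direction. None of the Nkx genes of this set that were tested was called lower in either mutant. Over all genes, 17.4% were lower in I53A and 29% in QKO. The log2 fold change of Nkx2-4 in QKO, -0.81 (edgeR adjusted p = 0.114), passed without QKO replicate 2 (-1.49, adjusted p = 0.0144). Nkx factors act in heart, lung, gut, prostate and ventral neural tube. Nkx6-2, an oligodendrocyte and spinal cord factor and the Nkx gene of highest level, stood between 7.86 and 10.3 CPM in wild type and between 6.30 and 10.1 CPM in I53A, and its log2 fold change was -0.13 ± 0.20. In QKO, Nkx1-2, a gene of posterior axial progenitors, rose from 0.232, 0.165 and 0.139 CPM to 0.940, 1.06 and 0.655 CPM, a log2 fold change of 2.27 ± 0.51 (edgeR adjusted p = 0.00015). Exons of Gm16764 overlap 16.6% of its counted length.

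Nkx2-9, a ventral neural tube factor, rose in QKO by 0.87 ± 0.33 on the log2 scale (edgeR adjusted p = 0.0221). That call ended with DESeq2 (adjusted p = 0.0996) and without wild type replicate 1 or 2 or QKO replicate 1. In I53A its log2 fold change was 1.06 ± 0.45, which did not pass (edgeR adjusted p = 0.103) but did with the replicate block (adjusted p = 0.0357). The difference between the effects on Nkx2-9, 0.21 ± 0.55, did not pass the test (edgeR adjusted p = 0.802). Nkx2-5, the heart regulator, had 1, 8 and 6 counts in wild type of set 2 and no count in QKO. It was at least 5.34-fold higher in wild type, with 3 counts over the QKO libraries as the floor.

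The genes of forebrain, skull and midbrain (Dlx, Msx, Emx, En, Vax, Barhl, Barx, Tlx and Lbx, 24 in all) were the largest group. In I53A, 8 of 11 tested rose and none fell, against 18.1% and 17.4% of all genes. Of the 8, only En2 and Msx2 would pass the filter by their wild type libraries alone, so these shares are not like for like. In QKO, 3 of 6 rose and 2 fell, against 28.7% and 29% of all genes. Msx2 and Msx1 are regulators of skull, teeth and limb. Msx2 rose in I53A from 1.24, 1.62 and 1.99 CPM to 5.76, 6.08 and 9.79 CPM, a log2 fold change of 2.16 ± 0.29 (edgeR adjusted p = 0.00085). In QKO it rose from 1.68, 1.54 and 2.09 CPM to 4.02, 5.03 and 4.73 CPM, a log2 fold change of 1.35 ± 0.21 (edgeR adjusted p = 2.1e-07). The difference between its effects, 0.82 on the log2 scale, did not pass the test (edgeR adjusted p = 0.084) but did with the replicate block (adjusted p = 0.038). Msx1 rose from 0.112, 0.335 and 0.153 CPM to 2.05, 1.46 and 1.66 CPM in I53A, a log2 fold change of 3.03 ± 0.46 (edgeR adjusted p = 0.00145). It had too few counts to test in set 2, with CPM between 0.0551 and 0.186 in all 6 libraries. No library of these mutants overlapped its wild type for Msx2, nor did I53A for Msx1.

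The engrailed gene En2, a regulator of midbrain and cerebellum (chr5:28492236-28500152, plus strand), was the most firmly changed member in set 2. It stood at 9.28, 9.53 and 10.2 CPM in wild type libraries and 41.0, 39.7 and 43.3 CPM in QKO, a log2 fold change of 2.09 ± 0.08 (edgeR adjusted p = 5.1e-28). In set 1 it moved from 2.19, 2.23 and 3.67 CPM to 8.20, 8.67 and 9.0 CPM in I53A, a log2 fold change of 1.69 ± 0.22 (edgeR adjusted p = 0.0008). The groups did not overlap in either set, and the difference between the effects, -0.36 ± 0.20 on the log2 scale, did not pass the test (edgeR adjusted p = 0.179). Its relative En1 rose in I53A by 1.76 ± 0.48 on the log2 scale (edgeR adjusted p = 0.0221), a call that ended without wild type replicate 1 or 2 or I53A replicate 1 or 2. It had too few counts to test in set 2.

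**Figure D3:**
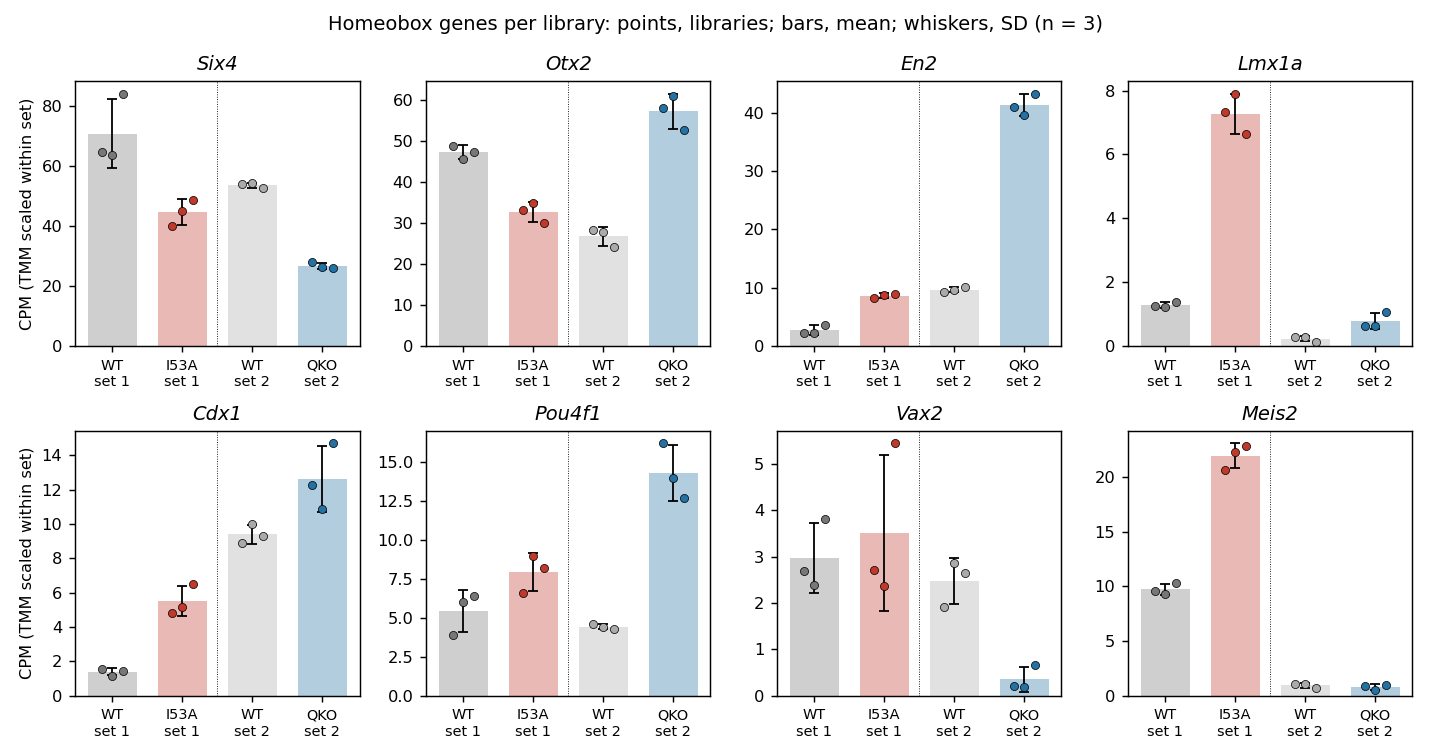
Level in CPM (vertical axes from 0, scaled within each set) of 8 homeobox genes in the 12 libraries, with points for libraries, bars for means and whiskers for the SD (n = 3). The mutant lies below its wild type in both sets for Six4, above it in both for En2, Lmx1a and Cdx1, and on opposite sides for Otx2, and no mutant library overlaps its wild type in these 5 panels.

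Vax2, a factor of the ventral eye (chr6:83661258-83688298, plus strand), was called in QKO and not in I53A. It stood at 1.91, 2.87 and 2.64 CPM in wild type libraries and 0.214, 0.186 and 0.655 CPM in QKO. It fell by 2.76 ± 0.37 on the log2 scale (edgeR adjusted p = 6.3e-09), the largest decrease among the genes tested in set 2. In I53A its log2 fold change was 0.23 ± 0.36, with a value of 5.45 CPM in replicate 3 against 2.72 and 2.36 CPM in the others. The effects differed by 3.01 ± 0.58 (edgeR adjusted p = 0.00096).

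Tlx2, a factor of enteric and sensory neurons, rose in both mutants. It moved from 0.225, 0.391 and 0.229 CPM to 2.55, 1.97 and 3.16 CPM in I53A, and from 0.928, 0.496 and 0.974 CPM to 2.52, 1.86 and 1.54 CPM in QKO. The log2 fold changes were 3.12 ± 0.39 (edgeR adjusted p = 0.00058) and 1.30 ± 0.32 (edgeR adjusted p = 0.00048), and the effect was larger in I53A by 1.84 ± 0.53 (edgeR adjusted p = 0.0146). Dlx4, a placenta and branchial arch factor, was called in opposite directions. It stood at 0.618, 1.00 and 0.382 CPM in wild type libraries and 1.16, 2.19 and 1.97 CPM in I53A, and at 1.57, 1.32 and 1.21 CPM in wild type and 0.897, 0.497 and 0.328 CPM in QKO. Its log2 fold changes were 1.36 ± 0.43 (edgeR adjusted p = 0.0383) and -1.20 ± 0.37 (edgeR adjusted p = 0.00467). The I53A call of Dlx4 ended without wild type replicate 1 or 3 or I53A replicate 2 or 3, and the QKO call without QKO replicate 3 (adjusted p = 0.0572).

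Dlx3, which lies 15.2 kb from Dlx4 on chromosome 11, rose in I53A by 1.62 ± 0.47 on the log2 scale (edgeR adjusted p = 0.0281). The call ended without wild type replicate 1 or 2 or I53A replicate 1. Barx1, a stomach and tooth factor, rose by 2.45 ± 0.58 (edgeR adjusted p = 0.012), a call that ended without I53A replicate 2 (adjusted p = 0.0538). Barx2, a muscle and cartilage factor, had 2 counts over the wild type libraries of set 2 and 40 over those labelled QKO, a ratio of 18.7 with an exact 95% interval from 4.85 to 160.

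In I53A the posterior and hindbrain genes (Cdx, Evx, Gbx and Mnx1) gave 3 increases among 5 tested and none that fell. Over all genes the shares were 18.1% and 17.4%. Of the 3, Evx1 would not pass the filter by its wild type libraries alone. Cdx1, which patterns the posterior axis and the gut, rose from 1.57, 1.17 and 1.45 CPM to 4.82, 5.18 and 6.48 CPM, a log2 fold change of 1.96 ± 0.23 (edgeR adjusted p = 0.00045). In set 2 it moved from 8.88, 10.0 and 9.32 CPM to 12.3, 10.9 and 14.7 CPM, a smaller rise of 0.44 ± 0.12 (edgeR adjusted p = 0.00106). The effects on Cdx1 differed by 1.55 ± 0.25 (edgeR adjusted p = 0.00019), and its groups did not overlap in either set. Evx1, a primitive streak gene, moved from 0.225, 0.167 and 0.229 CPM to 1.39, 1.91 and 0.948 CPM in I53A, a log2 fold change of 2.76 ± 0.46 (edgeR adjusted p = 0.00235).

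Gbx2 moved from 20.1, 19.0 and 28.7 CPM to 33.8, 31.7 and 45.3 CPM in I53A, and replicate 3 was the highest of both groups. Its log2 fold change was 0.71 ± 0.19 (edgeR adjusted p = 0.0231), a call that ended without wild type replicate 1 or 2 or I53A replicate 1. Exons of D130058E05Rik overlap 32.4% of its counted length. In QKO the log2 fold change of Gbx2 was 0.03 ± 0.08. Gbx1 stood at 3.25, 2.31 and 3.66 CPM in wild type libraries and 2.22, 1.80 and 2.20 CPM in QKO, just without overlap, and fell by 0.56 ± 0.23 on the log2 scale (edgeR adjusted p = 0.032). That call ended with DESeq2 (adjusted p = 0.11) and without wild type replicate 1 or 3 or QKO replicate 2.

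Of the 9 Irx and Meis genes, 5 could be tested in I53A and all 5 rose, against 18.1% of all genes. Among the 5, Irx4 would not pass the filter by its wild type libraries alone. Irx and Meis proteins are TALE homeodomain factors, and Meis proteins are partners of Hox and Pbx proteins on DNA. Meis2 (chr2:115688800-115891575, minus strand) moved from 9.61, 9.32 and 10.3 CPM to 20.7, 22.3 and 22.9 CPM, a log2 fold change of 1.17 ± 0.11 (edgeR adjusted p = 0.00016). Meis1 moved from 1.63, 0.949 and 1.30 CPM to 6.26, 4.5 and 6.79 CPM, a log2 fold change of 2.17 ± 0.28 (edgeR adjusted p = 0.00067). The groups were apart for both genes. Meis3 and Irx2 rose by 1.18 ± 0.26 and 1.34 ± 0.18 on the log2 scale (edgeR adjusted p = 0.00843 and 0.00082). Irx4, a heart ventricle factor, rose from at most 0.393 CPM to 1.44, 1.58 and 2.69 CPM, a log2 fold change of 2.88 ± 0.56 (edgeR adjusted p = 0.00497).

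In QKO none of Meis2, Meis3 and Irx2 was called, with log2 fold changes of -0.23 ± 0.37, -0.16 ± 0.27 and -0.08 ± 0.29. For each of these 3 genes the effects differed between the mutants, by 1.42 ± 0.30 for Meis2, 1.37 ± 0.36 for Meis3 and 1.43 ± 0.32 for Irx2 (edgeR adjusted p = 0.00181, 0.00769 and 0.00283). Irx3, a neural tube and heart factor, rose in QKO, from 0.580, 0.0551 and 0.325 CPM to 0.983, 1.37 and 0.936 CPM, a log2 fold change of 1.75 ± 0.46 (edgeR adjusted p = 0.001).

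Six4 (chr12:74201246-74214401, minus strand), a factor of muscle, kidney and placodes, fell in both mutants, against the direction of most homeobox genes in I53A. It stood at 64.8, 63.6 and 84.2 CPM in wild type libraries and 40.2, 45.0 and 48.8 CPM in I53A, and at 54.0, 54.3 and 52.7 CPM in wild type and 27.9, 26.4 and 26.1 CPM in QKO. Every mutant library lay below every wild type library of its set. It fell by 0.67 ± 0.13 in I53A (edgeR adjusted p = 0.00494) and by 1.00 ± 0.06 in QKO (edgeR adjusted p = 3.2e-19) on the log2 scale. The difference between its effects, 0.36 ± 0.14, did not pass the test (edgeR adjusted p = 0.0582) but did with the replicate block (adjusted p = 0.00103) and with set 1 limited to replicates 1 and 2 (adjusted p = 0.00042).

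Six6, an eye and pituitary gene, had 3 counts over the wild type libraries of set 1 and 7 over those of I53A. The ratio of these counts was 2.35, with an exact 95% interval from 0.536 to 14.1. Eya1, a phosphatase and transcriptional coactivator, fell in both mutants, by 2.07 ± 0.21 in I53A (edgeR adjusted p = 0.00024) and by 0.51 in QKO (edgeR adjusted p = 0.00019) on the log2 scale. Six2, the nephron progenitor regulator, had no count in wild type of set 1 and 7, 6 and 12 counts in I53A, at least 8.39-fold higher.

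The paired-like genes act in the anterior brain, pituitary, left-right axis and facial mesenchyme and were called in both directions in I53A. Otx2 (chr14:49277354-49287319, minus strand) was called in opposite directions in the mutants. It stood at 48.9, 45.6 and 47.3 CPM in wild type libraries and 33.3, 34.9 and 30.1 CPM in I53A, and fell by 0.53 ± 0.09 on the log2 scale (edgeR adjusted p = 0.00282). In set 2 it stood at 28.3, 27.8 and 24.1 CPM in wild type libraries and 58.1, 61.1 and 52.7 CPM in QKO, and rose by 1.10 ± 0.07 (edgeR adjusted p = 3e-19). No library overlapped the other group of its set, and the effects differed by -1.61 ± 0.12 on the log2 scale (edgeR adjusted p = 2.1e-07).

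Alx1, a craniofacial gene, rose in I53A from at most 0.393 CPM to 1.33, 1.46 and 1.58 CPM, a log2 fold change of 2.54 ± 0.47 (edgeR adjusted p = 0.00407). Otx1, the cortical relative of Otx2, rose by 1.94 ± 0.59 (edgeR adjusted p = 0.034), a call that ended when any library but wild type replicate 3 was left out. Pitx1, the hindlimb regulator, was at 0 in wild type of set 1 and had 18, 9 and 25 counts in I53A, at least 17.4-fold higher.

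The POU genes, factors of neural progenitors and sensory neurons, gave 1 increase among 4 tested in I53A, against 18.1% of all genes. The gene that rose, Pou3f3, would not pass the filter by its wild type libraries alone. Pou3f3, a forebrain and kidney factor, moved from 0.281, 0.279 and 0.382 CPM to 1.77, 2.08 and 1.66 CPM, a log2 fold change of 2.55 ± 0.35 (edgeR adjusted p = 0.00095). Pou4f1, a sensory neuron regulator (chr14:104862737-104867216, minus strand), stood at 4.58, 4.41 and 4.27 CPM in wild type of set 2 and 16.2, 14.0 and 12.7 CPM in QKO. It rose by 1.70 ± 0.13 (edgeR adjusted p = 1.3e-16), with no overlap. In I53A its log2 fold change was 0.55 ± 0.23, which did not pass (edgeR adjusted p = 0.0922) but did with the replicate block (adjusted p = 0.00825), with replicates 1 and 2 alone (adjusted p = 0.012) and with 12 libraries in 1 fit (adjusted p = 0.0217), and the groups just did not overlap. The rise was larger in QKO, by -1.12 ± 0.26 as I53A effect minus QKO effect (edgeR adjusted p = 0.00327).

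Pou3f1, known from the shift of ES cells toward the epiblast and from myelinating glia, stood at 3.42, 2.92 and 4.27 CPM in wild type libraries and 2.05, 2.05 and 2.72 CPM in QKO, without overlap. It fell by 0.64 ± 0.22 on the log2 scale (edgeR adjusted p = 0.00943), a call that ended without wild type replicate 3 or QKO replicate 1. Pou4f2, a retinal ganglion cell regulator, had log2 fold changes of 0.03 ± 0.19 in I53A and -0.04 ± 0.17 in QKO.

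Both comparisons could be tested for 27 of the genes. Of the 31 called in I53A and the 20 called in QKO, 11 were shared, which is 35.5% of the first list and 55.0% of the second. Over all genes, 3364 were called in both, which is 61% of those called in I53A and 37.8% of those called in QKO. The homeobox lists include genes with too few counts to test in the other comparison, such as Pax1 and Msx1 in QKO and Nkx1-2 and Irx3 in I53A. Such genes cannot be shared, and how many there are over all genes was not counted. The shares therefore do not show that homeobox genes have more or fewer calls in common. Among the shared genes, Cdx1, En2, Lmx1a, Msx2 and Tlx2 rose in both, Six4 and Pax6 fell in both, Dlx4 rose in I53A and fell in QKO, and Otx2 fell in I53A and rose in QKO. Tested as an interaction over the 12 libraries, the effect was higher in I53A than in QKO for 16 of 51 genes (31.4%), against 18% of all 16501 genes, and lower for 3 (5.88%), against 18.1%. The 3 were Nkx1-2, Otx2 and Pou4f1. With the replicate block the counts were 20 and 3, against 24.8% and 24.1% of all genes. The filter favours a higher I53A effect here too, since a gene such as Pax1 passes it only through its I53A libraries. Without any filter, the effect was higher for 20 of 98 genes (20.4%) and lower for 3 (3.06%), against 10.6% and 10.6% of 26325 genes.

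**Figure D4:**
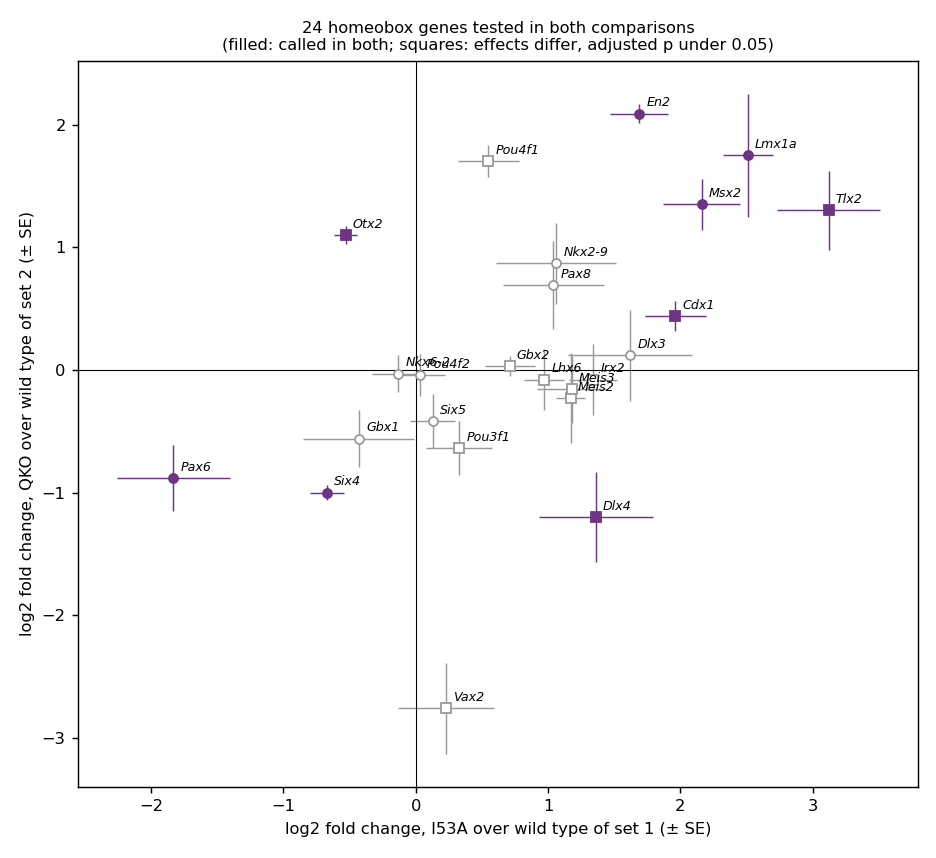
Log2 fold change in I53A (horizontal axis) and in QKO (vertical axis), each over the wild type of its own set and ± SE, for 24 homeobox genes tested in both. Filled symbols were called in both comparisons and squares mark genes whose effects differed by the interaction test, so Otx2 (upper left) and Dlx4 (lower right) are filled squares, while En2, Lmx1a, Msx2, Pax6 and Six4 are filled circles.

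Among genes with too few counts to test, several had more counts in I53A than in its wild type, and those given here were singled out after their values were known. Cdx2, the trophectoderm and gut regulator, had 1 count over the wild type libraries of set 1. In I53A it had 10, 20 and 13 counts, a ratio of 43.3 with an exact 95% interval from 7.36 to 1750. Nkx2-3, a gut and spleen factor, had no count in wild type and 6, 12 and 4 counts in I53A, at least 7.38-fold higher. Dlx6, a jaw and forebrain factor, had none in wild type and 6, 1 and 9 counts in I53A, at least 5.37-fold higher. Alx4 had 1 count over the wild type libraries and 25 over those of I53A, which gives a ratio of 25.2 with an interval from 4.12 to 1030. In set 2, Cdx2, Nkx2-3 and Dlx6 had at most 5 counts in any library, in either group, while Alx4 had 4, 0 and 5 in wild type and 8, 1 and 0 in QKO. These intervals and floors cover counting error only.

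Cofactors of homeodomain proteins (Pbx, Pknox, Ldb, Lmo, Eya, Dach, Tle, Sall and related genes, 28 in all) gave 4 increases and 6 decreases among 23 tested in I53A, against 18.1% and 17.4% of all genes. In QKO 10 of 25 rose and 7 fell, against 28.7% and 29% of all genes. Pbx3, which pairs with Meis and Hox proteins, fell in I53A by 1.74 ± 0.13 on the log2 scale (edgeR adjusted p = 4.8e-05), and Pknox2, another TALE cofactor, by 1.98 ± 0.23 (edgeR adjusted p = 0.00044). Hopx, a homeodomain protein that does not bind DNA, rose by 1.83 ± 0.38 (edgeR adjusted p = 0.00686). In QKO, Dach1, a transcriptional corepressor, rose by 5.04 ± 0.32 (edgeR adjusted p = 1.2e-19), from 0.176 to 5.98 CPM. Dach2 rose by 1.66 ± 0.25 (edgeR adjusted p = 1.4e-07) and Pknox2 by 2.17 ± 0.35 (edgeR adjusted p = 5.5e-07). Sall3, a zinc finger transcription factor, fell by 1.82 ± 0.18 (edgeR adjusted p = 1.5e-10).

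Of the genes of the Polycomb complexes themselves, 32 were tested. In I53A 11 rose and 2 fell, against 18.1% and 17.4% of all genes, and in QKO 6 rose and 17 fell, against 28.7% and 29%. Phf19, a PRC2 accessory subunit that reads methylated histone H3, fell in both, by 2.54 ± 0.14 in I53A (edgeR adjusted p = 1.2e-05) and by 1.11 ± 0.11 in QKO (edgeR adjusted p = 5.2e-12) on the log2 scale. Cbx8, a PRC1 subunit that binds methylated H3, rose in I53A by 2.35 ± 0.32 (edgeR adjusted p = 0.00094).

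Markers of other cell types moved in the same libraries. In I53A all 14 primitive endoderm markers rose, with summed levels of 495 to 529 CPM in wild type and 4120 to 4240 CPM in I53A, and their median log2 fold change was 4.38. The defining factors Gata4, Gata6 and Sox17 had means of 2.67, 0.805 and 0.620 CPM in wild type, against 56.5, 30.3 and 21.7 CPM in I53A. In set 2 the sum was 353 to 375 CPM in wild type and 434 to 442 CPM in QKO, with 6 of 12 tested higher and 1 lower. Trophoblast markers gave 5 of 6 higher in I53A, with sums of 41.6 to 45.2 and 121 to 133 CPM, and Tpbpa at 0 in I53A. In set 2, 1 of 4 rose and 3 fell, with sums of 58.4 to 67.6 CPM in wild type and 31.3 to 34 CPM in QKO. Cdx2 is on that list, and Pax6 and Otx2 are on the neural list.

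Mesoderm markers gave 5 of 8 higher in I53A, with sums of 16.5 to 20.1 and 44.1 to 49.5 CPM, while 3 of 6 fell in QKO, with sums of 21.9 to 23.5 and 12.4 to 14.5 CPM. Neural markers gave 3 of 7 higher and 2 lower in I53A, with sums of 154 to 175 and 169 to 183 CPM, and 4 of 6 higher and 1 lower in QKO, with sums of 128 to 138 and 243 to 250 CPM. Fibroblast markers, which would show feeder cells, summed to 33.9 to 36.1 CPM in wild type and 73.3 to 82.8 CPM in I53A, with 5 of 6 tested higher. In set 2 they summed to 34.5 to 38.6 CPM in wild type and 64.7 to 68.2 CPM in QKO, with 4 of 6 higher and 1 lower. Col1a2, a collagen gene, rose in both mutants, from 0.314 to 4.83 CPM in I53A and from 0.16 to 4.70 CPM in QKO (edgeR adjusted p = 4.5e-05 and 7.9e-17), while Dcn, Postn and Prrx1 were at 0 in wild type of both sets and at no more than 0.0633 CPM in the mutants. The part of these cell type markers in the changes of the homeobox genes was not tested.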

How the data were processed

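Per the labels' protocols, TRIzol was used for RNA extraction and TruSeq for library construction. For each library the authors deposited a table of raw counts, made with featureCounts 1.6.3 in paired-end mode on a GENCODE annotation of NCBIM37 (mm9), with no strand option set, per the file headers. Tools in the submitters' processing notes are Bowtie2, HISAT2, SAMtools, featureCounts and DESeq2, with no versions, and builds are mm9 and dm6. Per the file headers, TopHat and unique appear in the alignment names of set 1 and not of set 2. The aligner of each set is not given in these sources, and set and alignment cannot be told apart. Groups and replicate numbers were taken from the sample titles.

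Counts were filtered with filterByExpr (minimum count 10), scaled by TMM and tested over all genes with edgeR's quasi-likelihood test, robust (edgeR 4.0.16, R 4.3.3), two-sided, with Benjamini-Hochberg adjustment and a threshold of 0.05. Each mutant was set against the wild type of its own set, and the difference between effects was tested as an interaction over 12 libraries. DESeq2 1.42.0 served as an alternative. CPM values use TMM scaling within a set, and RPKM values scaling over 12 libraries and the lengths in the tables. On simulated counts the fits recovered, at 4-fold increases, 100% of changed genes in each comparison. At 2-fold increases it was 98% (I53A), 100% (QKO) and 90% (difference), and at 2-fold decreases 90%, 98% and 84%. Each rate was taken over 50 changed genes and was not split by count level. The simulation used the same fixed dispersion for all genes and left out the shared deviation of replicate 3 in set 1. The rates therefore do not give the recovery in the data of set 1. Recovery at the low counts of most homeobox genes was not tested.

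In set 1, deviations of libraries with the same number correlated at 0.229, 0.258 and 0.491 across genes, so the numbers were taken to pair the samples there. Replicates 1 and 2 correlated as much across numbers (0.218 and 0.241), so replicate 3 alone stands apart, and the deposited tables of I53A replicates 1 and 2 carry each other's numbers; the titles were followed. Between replicates, chi-square per degree of freedom was 2.25 or more, so each library counts once. Named are up to 3 called genes per family and comparison with at least 1 CPM and groups that do not overlap, all genes called lower, the 8 of highest level, those called in both comparisons, the 5 largest differences each way, close neighbours (200 kb) of called genes, and up to 4 called genes of the cofactor and Polycomb lists. The results of a few genes are not reported here, nor plotted, but are in the counts over all 98. Other genes were named after their values were seen. The 98 genes, the lists and the rules were chosen with earlier results of these data known. The comparison of the wild type groups, the counts over genes that pass by wild type alone and the signs in replicate 3 were added after seeing the data.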

Additional observations from a re-analysis of the deposited data

Results flagged for a closer look

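The effect of I53A and the effect of QKO, each against the wild type of its own set, differed by the interaction test (edgeR adjusted p under 0.05 over 16501 genes) for the 17 homeobox genes below, given as the I53A effect minus the QKO effect on the log2 scale. The effect was lower in I53A for Nkx1-2 (-2.87), Otx2 (-1.61) and Pou4f1 (-1.12). Differences in the posterior, hindbrain and TALE genes were 0.71 for Gbx2, 1.55 for Cdx1, 1.37 for Meis3, 1.42 for Meis2 and 1.43 for Irx2. In the LIM and POU genes they were 1.06 for Lhx6, 3.39 for Isl1 and 0.99 for Pou3f1. In the genes of skull, forebrain and sensory neurons they were 1.84 for Tlx2, 2.59 for Dlx4, 2.75 for Msx1 and 3.01 for Vax2. The remaining differences were 2.27 for Nkx2-4 and 5.47 for Pax1. The value for Pax1 rests in set 2 on 4 counts over the wild type libraries and 1 over those labelled QKO, and that for Isl1 on 18 and 2. Calls ended without at least 1 single library for 6 of these genes. For Pax1 this was wild type replicate 1 of set 2 (adjusted p = 0.0708), and for Isl1 it was wild type replicate 3 or QKO replicate 3 of set 2. The call of Pou3f1 ended without wild type replicate 2 or I53A replicate 3 of set 1, wild type replicate 1 or 3 of set 2, or QKO replicate 1 or 2. That of Gbx2 ended without wild type replicate 1 or 2 of set 1, wild type replicate 2 or 3 of set 2, or QKO replicate 1 or 2. Msx1 lost its call without wild type replicate 1 or 3 or I53A replicate 1 of set 1, and without wild type replicate 1 or 3 or QKO replicate 1 or 3 of set 2. Nkx2-4 kept it only without wild type replicate 2 of set 1, I53A replicate 3 or QKO replicate 2.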

How the results depend on the processing

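Counts of called homeobox genes stayed within 1.5 times the reported ones under every alternative run (other size factors, DESeq2, 2 other filters, the replicate block, 1 fit over 12 libraries, set 1 without replicate 3, and each library left out). In I53A, 22 to 35 rose and 3 to 4 fell, in QKO 8 to 13 rose and 7 to 11 fell, and the difference was higher for 13 to 22 and lower for 2 to 4. Over all genes, the replicate block gave 4371 higher and 4427 lower in I53A, against 2808 and 2704, and replicates 1 and 2 alone gave 4146 lower. In set 2, where same-numbered libraries correlated at 0.0236, -0.00393 and 0.042, the replicate block left 11 higher and 9 lower and changed no call of a named gene. A call was lost under at least 1 alternative for 9 of 29 called genes in I53A, 4 of 17 in QKO and 6 of 17 in the difference, where the block itself ended the call of Msx1 (adjusted p = 0.0505), and none of these called values changed direction. With the replicate block and no library left out, all 9 in I53A passed, with edgeR adjusted p from 9.9e-07 for Gbx2 to 0.0188 for Isl2. Genes without a call that changed sign were, in I53A, Vax2 (-0.01 in replicates 1 and 2 alone, -0.21 to 0.45 with single libraries left out), and in the same way Nkx6-2 (-0.31 to 0.02) and Pou4f2 (-0.08 to 0.22). In QKO, with single libraries left out, they were Dlx3 (-0.16 to 0.31), Gbx2 (-0.06 to 0.08), Irx2 (-0.28 to 0.17), Nkx6-2 (-0.20 to 0.16) and Pou4f2 (-0.21 to 0.06). The cause was not tested. Low counts limit the results, since 48 of the 98 genes had too few to test in either comparison.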

Other observations

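The wild type groups of the sets, both labelled R1, differed in some of these genes, in shares below or near those over all genes. In the fit over 12 libraries, 9 of 51 homeobox genes were higher in wild type of set 2 than of set 1 and 12 were lower (edgeR adjusted p under 0.05), against 28% and 29.4% of all 16501 genes. Cdx1 was at 1.32 ± 0.191 and 9.95 ± 0.632 CPM, and En2 at 2.54 ± 0.770 and 10.2 ± 0.542 CPM, with log2 differences of 2.91 ± 0.19 and 2.05 ± 0.15. Meis2 and Meis1 went the other way, with Meis2 at 9.18 ± 0.412 CPM in set 1 and 1.00 ± 0.232 CPM in set 2, and Meis1 at 1.22 ± 0.320 and 0.311 ± 0.191 CPM, while the other Irx and Meis genes tested were not called. Lmx1a was at 1.20 ± 0.0689 and 0.248 ± 0.0878 CPM. With the wild type libraries alone, 8 of 33 were higher and 11 lower, against 27.7% and 29.7% of all genes. Set, culture and the naming of the alignments cannot be told apart here.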
